A study of Mus musculus with 11 samples.

Results

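The 10 genes described here make, break down or carry retinoic acid or reduce its precursor: Rdh10, Aldh1a1, Aldh1a2, Aldh1a3, Dhrs3, Cyp26a1, Cyp26b1, Cyp26c1, Crabp1 and Crabp2. They were chosen by name for their role, and all 10 were found among 21887 protein-coding genes with RefSeq coordinates on GRCm38.p6 (mm10). For each gene every peak touching its span plus 50 kb on both sides was taken from 6 lists of CUT&RUN peaks. CUT&RUN uses an antibody to direct a nuclease to a chromatin protein and sequences the DNA released around it. Here the antibody was directed at Myc-tagged RARα, a retinoic acid receptor, in cortical cells of E14 mouse embryos. The cells had been separated magnetically for Prom1, a membrane protein found on neural progenitors. The groups were Control (3 libraries) and Foxc1 Mutant (3 libraries), all with the Myctag antibody. The sources used here do not give the Foxc1 allele, the way in which the tagged receptor was expressed or the number of embryos behind a library. Foxc1 is a transcription factor that the meninges, the membranes around the brain, need in order to form. The 5 isotype libraries of the series (3 control and 2 mutant) were not analysed here, so no value from a control antibody stands beside the peaks. Peak lists hold no expression values, so the labelled cell type could not be checked against its markers. The labels do not say whether replicates are separate embryos or repeats of one preparation, and p-values cover the spread between these 6 libraries only. Values are listed in the order of replicates 1, 2 and 3, with the control group first.

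Retinoic acid is made from vitamin A in a pair of steps. Retinol is first oxidised to retinaldehyde, mainly by Rdh10 in the embryo, and retinaldehyde is then oxidised to retinoic acid by Aldh1a1, Aldh1a2 or Aldh1a3. Dhrs3 runs the first step backwards, the Cyp26 enzymes inactivate retinoic acid, and Crabp1 and Crabp2 bind it in the cytoplasm. In the nucleus retinoic acid binds receptors such as RARα, which sit with RXR partners on response elements. In these elements a hexamer is repeated in the same direction with a short spacer. Cyp26a1 and Dhrs3 are textbook targets of the receptor, so that retinoic acid raises the level of the proteins that remove it. In the developing cortex the meninges are a known source of retinoic acid, and Aldh1a2 is the enzyme known for making it there.

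The best known response element of this family lies just before the start of Cyp26a1, and it is shown because it is the place in the 10 windows where receptor binding would be looked for first. RefSeq promoters (GRCm38.p6, from 250 bases before to 50 after a start site) were on hand for 7 of the 10 genes, and those of Rdh10, Aldh1a3 and Crabp2 were not used here. They were searched on both strands for direct repeats of the hexamer AGGTCA, of its variants GGGTCA or also AGTTCA and of the variant GGTTCA, in any pairing, with spacers of 1, 2 or 5 bases, called DR1, DR2 and DR5. A match is a string of letters and not a measured site. Among all 32851 promoters DR5 was present in 0.0974%, DR1 in 0.222% and DR2 in 0.268%. Of the 7 genes Cyp26a1 alone had a match, a DR5 of 17 bases on the minus strand that ends 16 bases before the start site. This start site is position 37697808, and the gene span used here begins earlier, at 37697738, so the match lies inside that span. It is printed 5′ to 3′ from the minus strand at chr19:37697770-37697798, with the repeated hexamers in capitals.
Cyp26a1 DR5: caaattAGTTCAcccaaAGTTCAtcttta

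None of the 6 lists had a peak over these bases. The nearest peak was 22.3, 28.1 and 42.6 kb away in control replicates 1, 2 and 3. In mutant replicates it was 12.7, 7.07 and 1.65 kb away. The nearest of all, in mutant replicate 3, spanned chr19:37699442-37700466 inside the Cyp26a1 gene and was 4 steps high, the median height of that library. A step is the smallest unit by which peak height changes within a library. It is worth a different signal in each one, so heights are compared within a library only. The element was closest to a peak in the libraries with the longest lists. Every mutant library had a nearer peak than every control library. This includes mutant replicate 1, whose list of 54112 peaks was shorter than the 86446 of control replicate 1. The cause of these distances was not tested.

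The lists differed widely in length. The control lists held 86446, 11869 and 30273 peaks, and the mutant lists held 54112, 410562 and 513290. On average 1 peak fell in every 224 kb in control replicate 2 and in every 5.18 kb in mutant replicate 3. The sources used here give no number of reads, so depth is unknown, and a window without a peak is not shown to be unbound. Peak numbers are therefore given beside the number expected in a window of the same width at the library's own mean density. The same windows were also placed every 10 kb along all chromosomes, and every protein-coding gene was given the same 50 kb flanks.

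**Figure D1:**
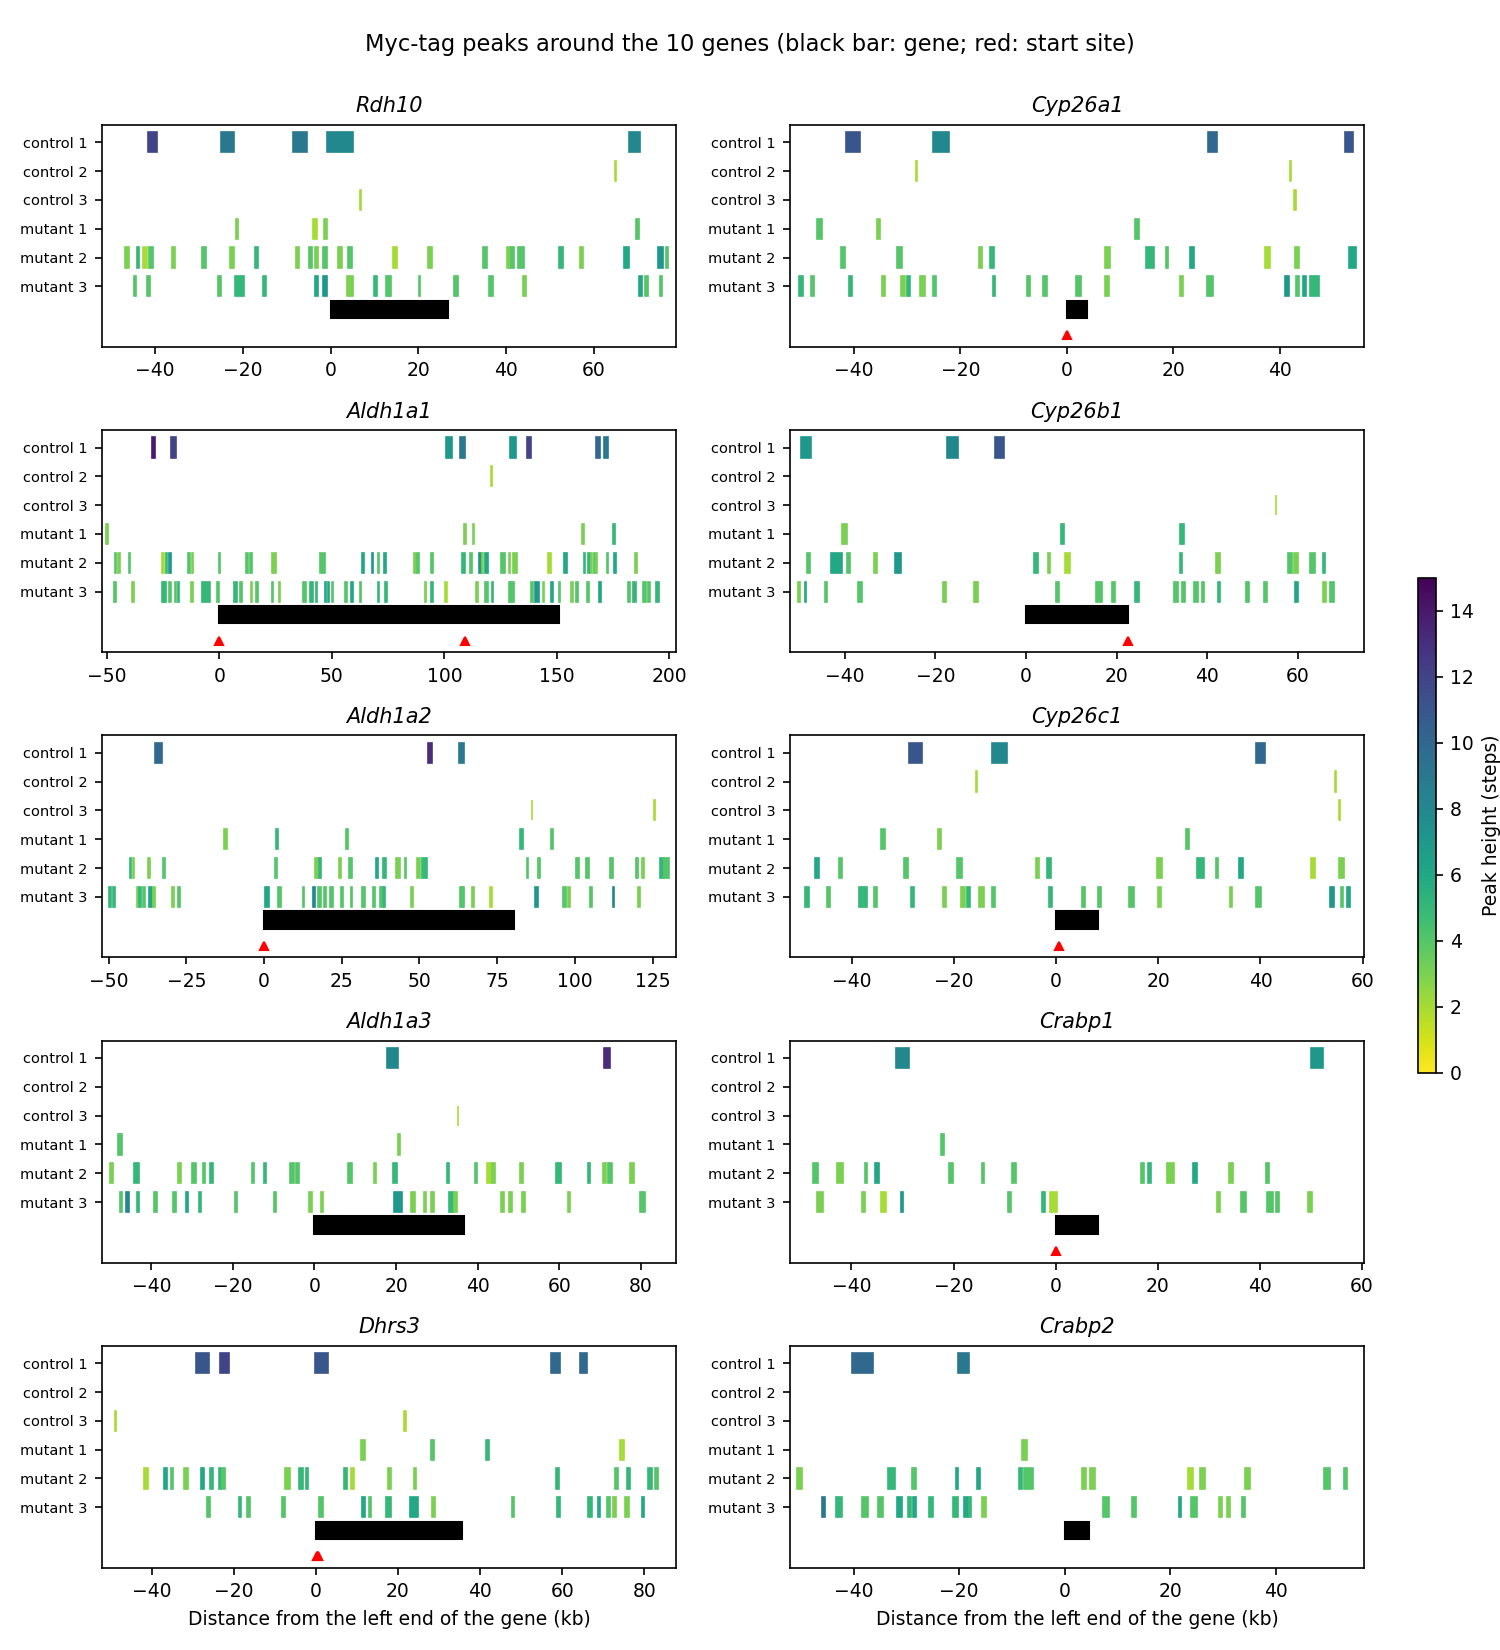
Peaks of each library (rows) around the 10 genes, by distance in kb from the left end of the gene. The black bar is the gene, red triangles are start sites from RefSeq promoters, colour gives the peak height in steps of that library, and very narrow peaks are drawn wider than they are. Control replicates 2 and 3 hold 4 and 8 peaks in all 10 windows, and mutant replicates 2 and 3 hold 186 and 217.

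The 10 windows held fewer peaks than their width would give in 5 of 6 libraries. Counting the stretch shared by Cyp26a1 and Cyp26c1 once, the windows spanned 1.28 Mb and held 34, 4 and 8 peaks in control and 28, 186 and 217 in mutant replicates. The ratio to the expected number was 0.802, 0.698 and 0.547 in control and 1.07, 0.935 and 0.873 in mutant replicates. The exception was mutant replicate 1, and control replicate 3, with 8 peaks where 14.6 were expected, was lowest. Over all protein-coding genes the median ratio was 1.09, 0 and 0.811 in control and 0.937, 0.946 and 0.887 in mutant replicates. Over the 10 genes it was 0.787, 0 and 0.704 in control and 1.28, 0.908 and 0.901 in mutant replicates. The median gene was thus also below the expected number in every list except control replicate 1. Peaks covered 6.24%, 0.0761% and 0.176% of the windows in control replicates, against 8.07%, 0.148% and 0.326% of the genome. In mutant replicates they covered 1.64%, 12.04% and 12.9%, against 1.46%, 12.3% and 15.7% of the genome.

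All 10 genes had a peak in control replicate 1 and in each mutant library, 4 of 10 had one in control replicate 2 and 7 of 10 in control replicate 3. The share of all protein-coding genes with a peak in the same window was 93.8%, 41.4% and 72.8% in control and 89.2%, 97.2% and 96.9% in mutant replicates. From windows of the same widths along the genome, 9.24, 4.42 and 7.45 of 10 would hold a peak in control and 8.81, 9.57 and 9.54 in mutant libraries. The genes counted were therefore near the background in every library. In lists cut to the 11869 peaks of highest total signal, 2, 4 and 3 genes had a peak in control and 4, 2 and 2 in mutant replicates. The background was 48%, 41.4% and 41.9% of all genes in control and 43.6%, 37.4% and 34.5% in mutant libraries. No library had, in these lists of equal length, a larger share of the 10 genes than of all genes.

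**Figure D2:**
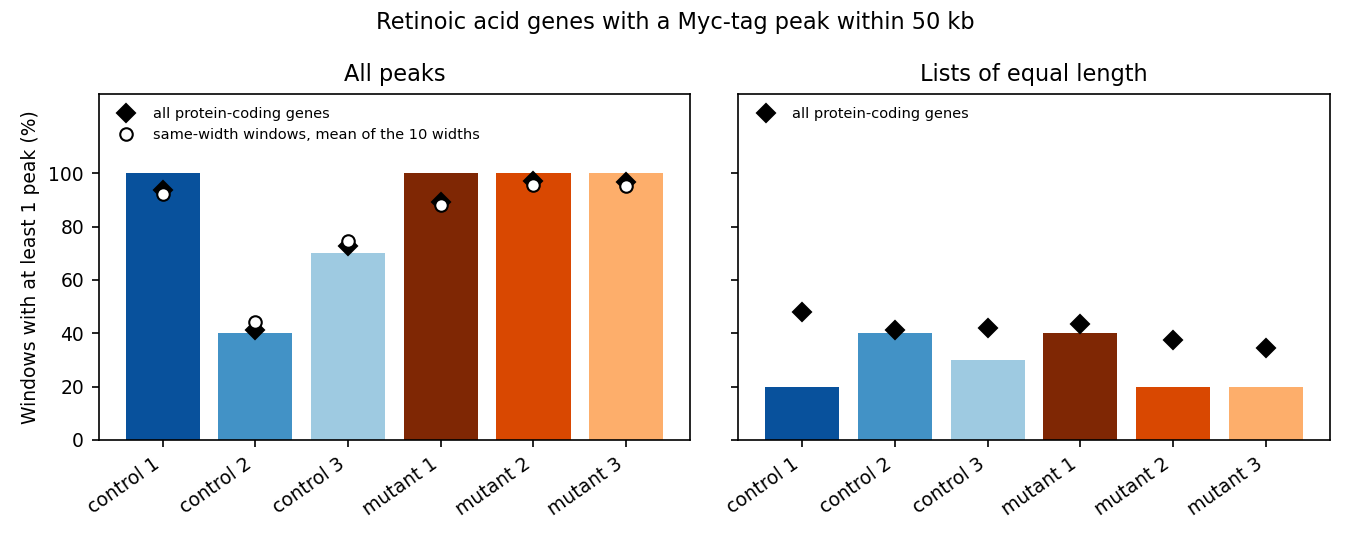
Percent of the 10 genes with at least 1 peak within the gene span plus 50 kb (bars), for all peaks and for lists of equal length. Diamonds are all 21887 protein-coding genes and open circles the windows of the same width placed along the genome. With all peaks, bars of 40% and 70% in control replicates 2 and 3 stand beside 41.4% and 72.8% of all genes.

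Taken one by one, 51 of the 60 combinations of gene and library had a peak, and 44 of the 60 were below the expected number. In 58 of them about 25% or more of the windows of the same width held as many peaks. The remaining 2 are Cyp26a1 and Cyp26c1 in control replicate 2, which rest on the same 2 peaks. The 58 include the 9 combinations without a peak, for which this holds in any case. This share can show an excess only, and none is given for the 44 below the expected number. The median gene was itself below that number in every list except control replicate 1.

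**Figure D3:**
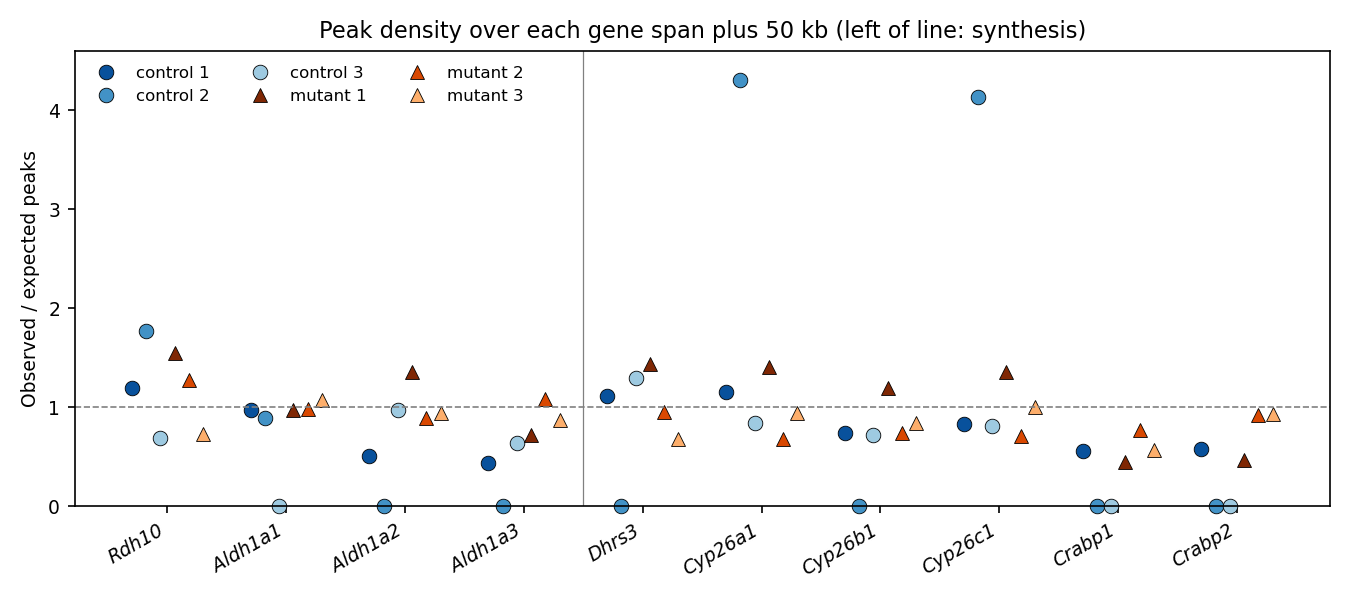
Ratio of observed to expected peaks in the window of each gene, with 1 point per library (circles control, triangles mutant); the dashed line marks the expected number. The highest points, 4.31 at Cyp26a1 and 4.13 at Cyp26c1 in control replicate 2, stand for 2 peaks each.

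Among the genes of synthesis, Rdh10 (chr1:16105882-16132550) was the only one with a peak in every list. Cyp26a1 and Cyp26c1 were the others among the 10, beside 30.2% of all genes. Its window held 5, 1 and 1 peaks in control and 4, 25 and 18 in mutant replicates. This was 1.19, 1.77 and 0.692 times the expected number in control and 1.54, 1.27 and 0.732 times in mutant replicates. The groups overlapped, with replicate 3 lowest in both. The peaks nearest to its left end formed the only region of the 10 windows with a base that lay in peaks of 4 libraries, control replicate 1 and all mutant replicates. It spans chr1:16104208-16111103, with heights of 8 steps in control and 3, 4 and 7 steps in mutant replicates. The mutant peaks nearest to this end stopped 743, 793 and 709 bp before Rdh10. They touched the end of Rpl7, a gene for a ribosomal protein (chr1:16101295-16104433). Inside Rdh10 the region also held peaks of mutant replicate 2 (3 and 4 steps) and mutant replicate 3 (3 steps). The control peak, 6117 bp wide, covered the left end of Rdh10 and did not touch Rpl7. The 3 mutant libraries alone, a pattern of 5962 of the 805693 regions of the genome, called a second region at chr1:16101944-16103087. It was 2, 3 and 6 steps high and lies inside Rpl7. The mutant peaks just before this end of Rdh10 can therefore not be assigned to Rdh10 rather than to Rpl7.

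Aldh1a1 (chr19:20492583-20643463) is the longest of the genes and has the largest window, 251 kb. It held 8, 1 and 0 peaks in control and 5, 38 and 52 in mutant replicates, or 0.972, 0.893 and 0 times the expected number in control and 0.977, 0.979 and 1.07 times in mutant replicates. The mutant values lay above all control values, and the gap between the groups was that between 0.972 and 0.977. Aldh1a1 was 1 of 2 genes here whose groups did not overlap, both with the mutant libraries higher. Among all genes 6.4% were higher in every mutant than in every control library, and 5.32% were lower. RefSeq gives the gene 2 start sites, and the inner one, at position 20601968, lay in or near peaks of 3 libraries. These were 9 steps high in control replicate 1, 273 bp before the start, 3 steps in mutant replicate 1, over the start, and 5 steps in mutant replicate 2, 307 bp before it. At the outer start, mutant replicate 2 had a peak of 4 steps over it and mutant replicate 3 a peak of 4 steps 327 bp before it.

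The 250 bases before the inner start are printed because 3 libraries had peaks within 1 kb of them, at chr19:20601718-20601967 on the plus strand. The bases in capitals are the only match to a receptor hexamer, on the opposite strand. A hexamer was present in the same 250 bases of 38.6% of all promoters, and no DR1, DR2 or DR5 was found here.
Aldh1a1 inner promoter: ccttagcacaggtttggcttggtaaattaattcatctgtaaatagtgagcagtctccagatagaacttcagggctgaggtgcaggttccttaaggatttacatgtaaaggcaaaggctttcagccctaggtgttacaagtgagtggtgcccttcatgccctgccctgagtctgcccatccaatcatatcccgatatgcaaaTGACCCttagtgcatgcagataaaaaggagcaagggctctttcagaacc

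Aldh1a2 (chr9:71215789-71296243), the enzyme known from the meninges, had 3, 0 and 2 peaks in control and 5, 25 and 33 in mutant replicates. The ratios to the expected number were 0.505, 0 and 0.973 in control and 1.36, 0.894 and 0.944 in mutant replicates. The groups overlapped, since control replicate 3 lay above mutant replicates 2 and 3. The nearest peak to its start was 32732 bp away in control replicate 1 and 3893, 3467 and 379 bp away in mutant replicates. No region of this window was called in more than 2 libraries.

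Aldh1a3 (chr7:66390892-66427477) had 2, 0 and 1 peaks in control and 2, 23 and 23 in mutant replicates, or 0.443, 0 and 0.642 times the expected number in control and 0.716, 1.09 and 0.868 times in mutant replicates. This was the other gene whose groups did not overlap. Its only peak within 1 kb of a gene end was of 3 steps in mutant replicate 3, 651 bp outside the left end. Lrrk1 lies 2.55 kb away on that side. A region inside the gene, chr7:66408774-66412287, joined peaks of control replicate 1 (8 steps) and mutant replicates 1, 2 and 3 (3, 5 and 7 steps), although no single base of it lay in more than 3 of them.

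Dhrs3 (chr4:144892534-144928209), which turns retinaldehyde back into retinol, had 5, 0 and 2 peaks in control and 4, 20 and 18 in mutant replicates. The ratios were 1.11, 0 and 1.29 in control and 1.44, 0.950 and 0.684 in mutant replicates, with control replicate 2 lowest and mutant replicate 1 highest. The whole Dhrs3 span lies inside that of Vps13d (chr4:144871045-145195037), so peaks in it cannot be assigned to Dhrs3 rather than to Vps13d. The Dhrs3 start carried a peak of 3170 bp and 11 steps in control replicate 1, at chr4:144892350-144895519. In mutant replicate 3 a peak of 4 steps began 45 bp after the nearest start site. In the other libraries the nearest peak was 2107 bp away or further, and control replicate 2 had none in the window.

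Cyp26a1 (chr19:37697738-37701536) and Cyp26c1 (chr19:37685112-37693320) are 4417 bp apart, and 92.1% of the Cyp26a1 window is shared with that of Cyp26c1, so their values are not independent. Cyp26a1 had 4, 2 and 1 peaks in control and 3, 11 and 19 in mutant replicates. Cyp26c1 had 3, 2 and 1, then 3, 12 and 21. Relative to the expected number Cyp26a1 stood at 1.16, 4.31 and 0.845 in control and 1.41, 0.682 and 0.942 in mutant replicates. The high value is that of control replicate 2, where 0.464 peaks were expected and 2 were found, each 2 steps high. As many were found in 8.26% of the windows of the same width. One of the 2, chr19:37669468-37669658, lies inside Exoc6 (chr19:37536763-37684052), a gene 1.06 kb from Cyp26c1. For Cyp26c1 the ratios were 0.834, 4.13 and 0.810 in control and 1.35, 0.714 and 0.999 in mutant replicates.

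One of these 2 peaks, chr19:37739629-37739799, lay 617 bp from the only peak of control replicate 3 in the window, chr19:37740416-37740767. Mutant replicate 3 had its tallest peak of the window next to them, at chr19:37738734-37739488 with 7 steps. Mutant replicates 2 and 3 also had peaks of 3 and 4 steps that joined the control replicate 3 peak into a region at chr19:37740416-37741401, about 42.6 kb past the Cyp26a1 start and over no protein-coding gene. The other peaks of control replicate 2 in the 10 windows were 57.9 kb or more from any peak of control replicate 3. Across the genome 12.9% of the control replicate 2 peaks had a control replicate 3 peak within 1 kb. The position was picked out after its values were seen.

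Cyp26b1 (chr6:84571414-84593908), a retinoic acid hydroxylase like Cyp26a1, had 3, 0 and 1 peaks in control and 3, 14 and 20 in mutant replicates. This was 0.739, 0 and 0.716 times the expected number in control and 1.20, 0.736 and 0.841 times in mutant replicates, and the groups overlapped by the narrow margin between 0.739 and 0.736. Its nearest peaks to the start were 27.3 and 32.6 kb away in control replicates 1 and 3 and 11.6, 11.6 and 1.70 kb away in mutant replicates. One region was called in the 3 mutant libraries and no control library, as were 5962 of the 805693 regions of the genome. The region at Cyp26b1 lies 11.6 kb before the start at chr6:84605378-84606551, and its peaks were 5, 5 and 4 steps high in mutant replicates.

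Crabp1 and Crabp2 encode the cytoplasmic carriers of retinoic acid. Crabp1 (chr9:54764748-54773110) had 2, 0 and 0 peaks in control and 1, 13 and 12 in mutant replicates. Crabp2 (chr3:87948693-87953372) had 2, 0 and 0, then 1, 15 and 19. These were the only 2 of the 10 genes with no peak in both control replicate 2 and control replicate 3. The ratios for Crabp1 were 0.555, 0 and 0 in control and 0.451, 0.772 and 0.570 in mutant replicates, below the expected number in all 6 libraries. Those for Crabp2 were 0.575, 0 and 0 in control and 0.467, 0.922 and 0.934 in mutant replicates, likewise below it throughout. The median gene was also below the expected number, except in control replicate 1. In control replicates 2 and 3, 0.485 and 1.24 peaks were expected in the Crabp1 window and 0.468 and 1.19 in the Crabp2 window. Of windows of the width of Crabp1, 37.8% and 68.6% held a peak in these lists, and of the width of Crabp2 36.9% and 67.5%. Most windows of these widths were thus empty in control replicate 2, and most held a peak in control replicate 3. The Crabp1 start lay in a peak of 2 steps in mutant replicate 3, the lowest height of that library in the windows, and no other list had a peak nearer than 7767 bp. Crabp2 had peaks within 1 kb of a gene end in mutant replicate 2 alone, 161 and 650 bp from its right end and both 3 steps high. The Crabp2 window also holds Nes, the gene of the progenitor filament nestin, 17.7 kb away, and 5 other genes.

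Synthesis genes and the other genes were close to each other. Per library the median log2 density (the ratio plus 0.5, on the log2 scale) of the 4 synthesis genes minus that of the 6 others was −0.08, 0.74 and −0.11 in control and −0.10, 0.29 and 0.02 in mutant replicates. Its mean over the 6 libraries was 0.13 ± 0.34 (SD, n = 6), smaller than the spread between libraries, and without control replicate 2 it was 0.0030. When the windows of each class were joined, synthesis genes had 25.9, 2.88 and 5.76 peaks per Mb in control and 23.0, 160 and 181 in mutant replicates. The other genes had 27.2, 3.40 and 6.81 in control and 20.4, 128 and 155 in mutant replicates. On this scale the synthesis genes were lower in each control and higher in each mutant library. In control replicates 2 and 3 both classes held equal numbers, 2 and 2 and then 4 and 4, over 0.695 and 0.588 Mb. By covered length control replicate 2 had the opposite order, with 0.0884% of the synthesis windows and 0.0616% of the others. The difference between genotypes was not tested.

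The peaks around these genes were of ordinary height. Their median height was 10, 2 and 2 steps in control and 3.5, 4 and 4 in mutant replicates, against 10, 2 and 2 and 4, 4 and 4 for all peaks of the libraries. The tallest was the peak 28.5 kb before the outer start of Aldh1a1 in control replicate 1, at 14 steps, a height that 9.51% of the peaks of that library reached. In control replicates 2 and 3 every peak in the windows was 2 steps high, which is both the median and the lowest height of those lists. The tallest was 5 steps in mutant replicate 1 (at Aldh1a1, Aldh1a2, Dhrs3 and Cyp26b1), 7 steps in mutant replicate 2 (at Rdh10, Aldh1a1 and Cyp26b1) and 9 steps in mutant replicate 3 (at Crabp2, 45334 bp from the gene). In mutant replicate 3, 4 of the 217 peaks, or 1.84%, were at or above 8 steps, against 2.07% of the whole list. In the other 5 libraries none reached the 99th percentile of its list. Median widths were 2250, 230 and 212 bp in control and 769, 783 and 690 bp in mutant replicates, against 2327, 304 and 260 and 679, 735 and 737 bp for all peaks.

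**Figure D4:**
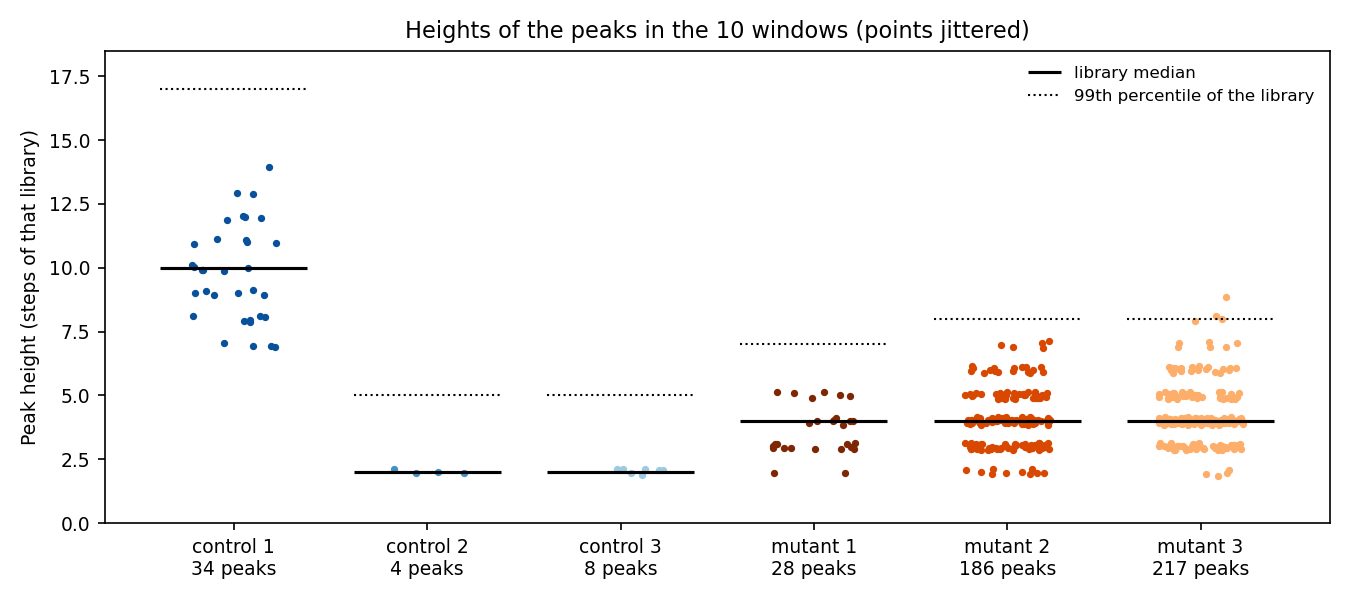
Height in steps of every peak in the 10 windows, with 1 point per peak and 1 column per library; solid lines mark the median and dotted lines the 99th percentile of all peaks in that library. The points lie around the medians, and only mutant replicate 3 has points at or above the dotted line.

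Peaks lay inside and outside the gene spans in about the proportion of their lengths. Gene spans make up 29.5% of the joined windows and held 26.5%, 25% and 37.5% of the peaks in control and 28.6%, 26.3% and 33.2% in mutant replicates. Of the 7 genes with a RefSeq start site, 2, 0 and 0 had a peak within 1 kb of it in control and 1, 1 and 4 in mutant replicates. Among the 17492 genes with such a start the share was 22.7%, 0.726% and 1.7% in control and 6.15%, 37.2% and 58.2% in mutant replicates. The genes were Aldh1a1 and Dhrs3 in control replicate 1, Aldh1a1 in mutant replicates 1 and 2, and Aldh1a1, Aldh1a2, Dhrs3 and Crabp1 in mutant replicate 3. No library had a peak at the start of Cyp26a1, Cyp26b1 or Cyp26c1.

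Few places were called in several libraries. Peaks that touched were joined into 369 regions in the 10 windows, and 77.8% of them came from a single library, against 74.1% of the 805693 regions of the genome. Regions in 4 or more libraries numbered 2, those at Rdh10 and Aldh1a3, which is 0.542% against 0.581% in the genome. Of the 10 genes 7 had a region called in at least 3 libraries (78.1% of all genes) and 2 had one in at least 4 (21.2% of all genes), while 0 had one in at least 5 (1.41% of all genes) and 0 in all 6 (0.0274%). Regions in all 3 mutant and no control libraries numbered 2 of 369, at Rdh10 inside Rpl7 and before Cyp26b1, against 5962 of 805693 in the genome. No region in the windows was called in all 3 control libraries and no mutant library, a pattern with 25 cases in the genome.

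The comparison of Foxc1 mutant with control embryos gave no call at any of the 10 genes. Log2 density was fitted with limma for all 21887 genes, with Benjamini-Hochberg adjustment over all of them and a threshold of 0.05. In all, 18 genes (0.0822%) were called, all higher in mutant libraries, and each of these 18 had no peak in any control library. The log2 difference was −0.01 ± 0.37 (SE, n = 3 and 3) for Rdh10, 0.58 ± 0.61 for Aldh1a1, 0.78 ± 0.63 for Aldh1a2 and 0.76 ± 0.59 for Aldh1a3. It was 0.40 ± 0.62 for Dhrs3, −0.57 ± 0.50 for Cyp26a1, 0.63 ± 0.63 for Cyp26b1 and −0.42 ± 0.51 for Cyp26c1. The sign turned without control replicate 2 for Rdh10 (0.21), Dhrs3 (−0.19) and Cyp26c1 (0.18), and after quantile normalization for Rdh10 (0.18) and Dhrs3 (−0.03). Without control replicate 2 Cyp26a1 stood at −0.01, and without control replicate 3 Aldh1a1 stood at 0.08. The binding protein genes stood at 0.76 ± 0.35 (Crabp1) and 0.96 ± 0.44 (Crabp2). Theirs were the smallest unadjusted limma p-values of the 10, 0.0585 and 0.0574, with an adjusted p of 0.844 for both. None of the 10 had an unadjusted limma p below 0.05, beside 5.06% of all genes. Over the 10 genes the adjusted limma p ran from 0.844 to 1.

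Of the 10 differences 7 were above 0, beside 64.4% of all genes, and their median was 0.61, beside 0.20 over all genes. A window without a peak takes the value of the pseudocount, and such windows were most frequent in control replicates 2 and 3. Without control replicate 2 the median over all genes was 0 and that of the 10 genes 0.28. Without control replicate 1, which leaves the 2 shortest control lists, 2714 of all 21887 genes were called. Crabp1 and Crabp2 were among them (limma, adjusted p = 0.043 for both). Both genes had no peak in these 2 lists, so their remaining control values were the pseudocount alone and had no spread. In lists of equal length no gene was called, 765 genes had an unadjusted limma p below 0.05, and the median of the 10 genes was −0.15. The number of calls thus moved with the control libraries used and with list length, and the median of the 10 genes turned below 0 in lists of equal length only among the settings run.

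**Figure D5:**
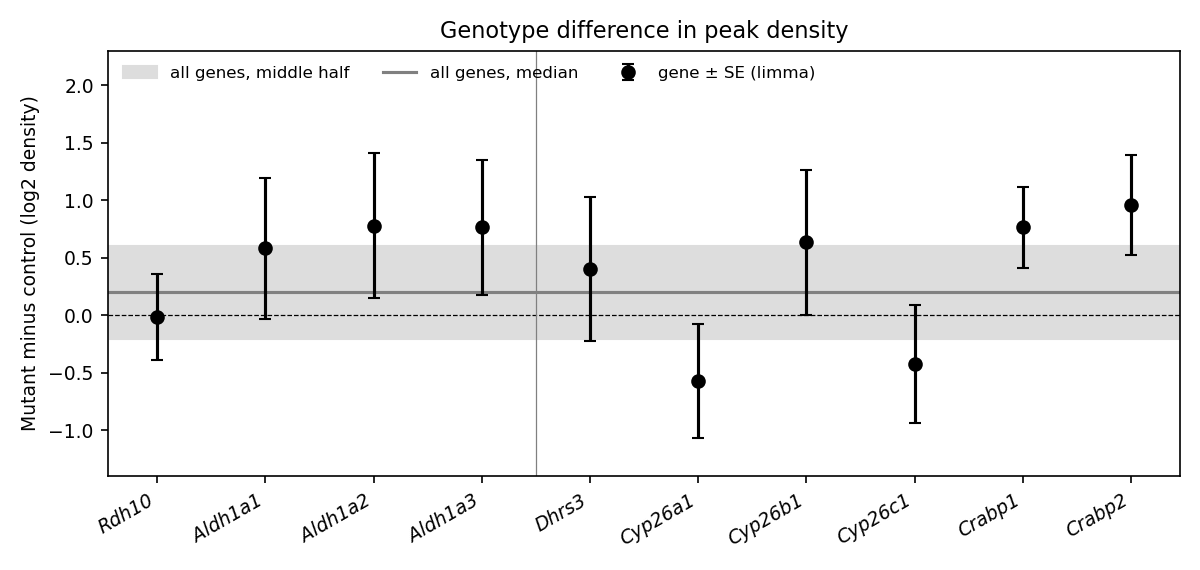
Log2 difference in peak density between mutant and control libraries for each gene, with its standard error from limma (n = 3 and 3); the grey band is the middle part of all genes, from −0.21 to 0.61 (between the quartiles), and the grey line their median of 0.20. Cyp26a1 and Cyp26c1 lie lowest at −0.57 and −0.42 (−0.01 and 0.18 without control replicate 2), and no gene passed the threshold.

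Other genes of the pathway gave the same count. Of 18 genes for vitamin A uptake and storage, further retinol dehydrogenases, receptors, a co-repressor and a known target (Rbp4, Stra6, Lrat, Bco1, Retsat, Adh7, Rdh11, Rdh5, Dhrs9, Fabp5, Rara, Rarb, Rarg, Rxra, Rxrb, Rxrg, Ncor1 and Tgm2), 0 were called higher and 0 lower. One had an unadjusted limma p below 0.05, and the median difference was 0.21. They had a peak in the window in 18, 11 and 12 cases in control and in all 18 in each mutant library. Loci of marker genes were counted in the same way: of 10 progenitor, 10 meningeal, 6 endothelial and 6 neuronal genes, 0 were called, with median differences of 0.53, 0.35, 0.81 and 0.34. An unadjusted limma p below 0.05 was found for 2, 2, 1 and 0 of them, beside 5.06% of all genes. All of them had a peak in control replicate 1 and in each mutant library, where 89.2% to 97.2% of all genes had one. In control replicate 2 this held for 3, 3, 2 and 3 of them (41.4% of all genes) and in control replicate 3 for 6, 4, 4 and 5 (72.8%). The meningeal list contains Crabp2 and Aldh1a2. The 3 genes whose 6 log2 densities were closest to the median profile of the 10 genes were Ddr1, Oas1h and Cisd1, at Euclidean distances of 0.115, 0.122 and 0.155 over 6 libraries, beside a median distance of 1.83 over all genes.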

How the data were processed

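Peak lists of 6 Myc-tag CUT&RUN libraries were used, grouped by title. SEACR and mm10 are named in the submitters' processing notes. The sources used here give no version, settings, aligner or scaling, and do not say whether isotype libraries entered the peak calling. Each deposited list belongs to 1 library and gives a total and a max signal per peak, both the authors' values; max signals below 100 steps were whole multiples of 1 unit within 0.01. The labels' protocols give 0.05% digitonin. The autosomes, X and Y were used, which left out 0 or 1 peak per library.

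Observed peaks (1 bp overlap) were divided by the number expected from each library's peak number and mean width. The log2 of this ratio plus 0.5 was fitted with limma 3.58.1 (R 4.3.3), with a trend, and tested on simulated data. Read depth is unknown, and no interval was computed. Since no strand is tabulated for Rdh10, Aldh1a3 and Crabp2, both gene ends served as their start. Windows of equal width were enumerated, not drawn at random, every 10 kb. Alternatives were other widths, thresholds, scalings, filters and sets of libraries. Named were all 10 genes, with peaks picked from the tallest, nearest and most shared of each, and not all of these are printed. Genes, lists and tests were chosen with earlier results of these data known. Deviations of same-numbered libraries were nearly uncorrelated (r of at most 0.026), which cannot show whether these libraries were prepared together. Some genes of the pathway list are not reported here, and its values are over the remaining 18.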

Additional observations from a re-analysis of the deposited data

Results flagged for a closer look

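The peak density of the synthesis genes relative to the other genes, from joined windows, was on opposite sides of 1 in the 2 genotypes. The ratio was 0.952, 0.846 and 0.846 in the control libraries, and 1.13, 1.25 and 1.17 in the mutant ones. On the log2 scale the means were −0.18 ± 0.098 and 0.24 ± 0.076 (SD, n = 3), a difference of 0.43. It was noted because every control library lay below and every mutant library above an equal density, and the difference was not tested. In control replicates 2 and 3 both classes held equal numbers, 2 and 4 peaks per class. Their ratios thus reflect the window lengths alone. By covered length control replicate 2 had the opposite order, with 0.0884% of the synthesis windows and 0.0616% of the others. Every other library kept its order, mutant replicate 1 by 1.65% against 1.63%. The measure was chosen after the data had been seen. The median over genes showed no such split.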

How the results depend on the processing

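The 18 called genes became 0 in lists of equal length, in the top 50% of peaks, with flanks of 5 or 25 kb, after centring on the library median and with a minimum mean ratio of 0.5, and 4 with flanks of 100 kb, quantile normalization or array weights. Leaving out 1 library gave 0 to 2714 calls: 2714 without control replicate 1 and 0 without control replicate 2 or 3. It gave 119, 38 and 42 without mutant replicate 1, 2 or 3. Without control replicates 2 and 3 (added after seeing the data) 1 gene was called, with the spread taken from the mutant libraries alone and the lone control library assumed to vary like them. With a replicate block 86 genes and none of the 10 were called. Same-numbered libraries had r from 4.64e-05 to 0.026, which cannot show whether they were prepared together. The median difference of the 10 genes ended at −0.15 in lists of equal length and kept its sign in every other setting run. Centring moved the median of all genes from 0.20 to −0.29 and quantile normalization to −0.03, with the 10 genes at 0.12 and 0.21. Synthesis minus other genes moved from 0.13 to −0.26 (equal length), −0.27 (top 50%) and 0.83 (5 kb). The mean number of the 10 genes with a peak, mutant minus control, moved from 3 to −0.333 (equal length), 5.33 (top 50%) and 0 without control replicates 2 and 3.

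Of 208 values for single genes 28 changed sign, and 2 became calls, Crabp1 and Crabp2 without control replicate 1. In that setting 2714 of all 21887 genes were called, and both genes had no peak in the remaining control lists. For Rdh10 the sign changed in the top 50% (0.42), with 5, 25 and 100 kb (0.74, 0.65 and 0.24), by covered length (0.086), quantiles (0.18) and weights (0.076). For Dhrs3 it changed with equal length (−0.97), centring (−0.088), quantiles (−0.034), weights (−0.087) and without control replicates 2 and 3 (−0.11). For Cyp26a1 it changed in the top 50% (0.22) and with 5 and 25 kb (0.85 and 0.81), and for Cyp26c1 likewise (0.21, 0.88 and 0.22), with 100 kb (0.013) and without control replicates 2 and 3 (0.17). With 100 kb Cyp26b1 (−0.18) and Crabp1 (−0.0053) changed, and with equal length Crabp2 (−0.79). Leaving out 1 library gave −0.25 to 0.21 for Rdh10, −0.19 to 0.73 for Dhrs3 and −0.73 to 0.18 for Cyp26c1. The causes were not tested. With unknown depth and 2 short control lists, a shorter list cannot be told apart from less binding.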
